A study of Rattus norvegicus with 4 samples.

Results

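A set of extracellular matrix genes was followed across the study, namely the fibrillar collagen genes Col1a1 (ENSRNOG00000003897), Col1a2 (ENSRNOG00000011292) and Col3a1 (ENSRNOG00000003357), the fibronectin gene Fn1 (ENSRNOG00000014288) and Sparc (ENSRNOG00000012840). They were selected by identifier, with earlier results of these data known, and all 5 of the 5 were among the 26406 features listed in every library. RNA came from ventricular myocytes of Sprague Dawley rats 2 days old, cultured with ITS supplement and transfected for 6 h with siRNA. The 4 libraries, 1 per group, were Chaer siRNA with 50 µM phenylephrine, control siRNA with 50 µM phenylephrine, Chaer siRNA without phenylephrine and control siRNA without phenylephrine, all collected at 48 h. Chaer is a long noncoding RNA linked to cardiac hypertrophy, and phenylephrine is an agonist of α1-adrenergic receptors that enlarges cultured myocytes. The design asks what phenylephrine does to the transcriptome and how that depends on Chaer.

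Collagen chains are secreted as precursors and assembled outside the cell into fibrils that carry the tension of the heart wall. Type I collagen is built from the chains encoded by Col1a1 and Col1a2, whereas type III collagen is built from the Col3a1 chain alone and runs in the same fibrils as type I. Fibronectin is the adhesive glycoprotein on which new fibrils are laid down, and SPARC is a secreted collagen-binding protein that takes part in their processing. In the heart, fibroblasts are the main source of the fibrillar collagens, and their transcripts are classical readouts of fibrosis.

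Libraries held 33944988 to 39155363 reads in listed features, and the 5 matrix genes together took 0.662% to 0.718% of them. No group had a replicate, so intervals given with levels and ratios are 95% counting intervals and hold no variation between cultures. Except for H19, features were listed by identifier alone and the RefSeq table paired 0 of them with a symbol. The myocyte label and the content of fibroblasts and other cell types could therefore not be checked against marker genes. In such bulk RNA, fewer cells of a type and less RNA per cell cannot be told apart. No feature was named Chaer, so its knockdown was not checked here.

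Col3a1 stood apart from the other collagens in the siRNA comparison, and Sparc ran opposite to the collagens with phenylephrine. Col3a1 was nearly 2-fold higher with Chaer siRNA whether or not phenylephrine was present. Col1a1 and Col1a2 were higher with Chaer siRNA by a smaller margin. All 3 collagens were lower with phenylephrine under both siRNAs, by at most 1.27 times, while Sparc was 1.32-fold and 1.22-fold higher. None of these phenylephrine differences reached 2-fold or passed the edgeR test below, and the median of all features was also slightly lower. Of all features, 15.4% passed that test. With control siRNA 1.12% were at least 2-fold higher and 0.605% lower, and with Chaer siRNA 1.1% and 0.875%. Fn1 differed little with phenylephrine, and with control siRNA its direction depended on the scaling between libraries.

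Promoter sequence is shown for the genes with a RefSeq entry, whatever their ratios. Whether it bears on their levels was not tested. The RefSeq promoter table (build GRCr8) held 2 of the 5 genes, Col1a2 and Sparc, each with 250 bases before and 50 bases from the annotated start. A stretch of 110 bases is given for each, in lower case with searched motifs in capitals, namely TATAAA, known as the TATA box, the letters CCAAT, known by themselves as a promoter box, and the letters GGAGGA, here called the GGA box, all on both strands. ATTGG is the CCAAT motif read on the other strand, and no 2 of the marked motifs overlap.
Col1a2, chr4:33518307-33518416, plus strand: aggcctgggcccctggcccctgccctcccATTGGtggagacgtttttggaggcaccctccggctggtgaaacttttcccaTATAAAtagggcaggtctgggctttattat
Sparc, chr10:40038877-40038986, minus strand: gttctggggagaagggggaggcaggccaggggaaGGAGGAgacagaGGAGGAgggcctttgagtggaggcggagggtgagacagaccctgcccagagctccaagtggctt

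The whole Col1a2 window held 1 TATA box, 170 bases before the annotated start, 1 CCAAT box, 221 bases before it, and 0 GGA boxes. Its first 3 bases from the annotated start read ATG, so that start may be the start of the coding sequence rather than of transcription, and the distances to it would then be counted from there. The Sparc window held 2 GGA boxes, 136 and 124 bases before the annotated start, and neither of the other motifs. Of all 33469 promoter windows of 300 bases, 14.2% held TATAAA, 37.5% held CCAAT and 32.5% held GGAGGA. These matches are a description of the letters in these windows.

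The 5 genes differed widely in level per length. Sparc was the most abundant, with a mean of 1405 RPKM (reads per kilobase of the gene model and per unit of sequencing depth) over the 4 libraries, and ranked 35th to 46th among all features. Col1a1 followed with a mean of 335 RPKM, then Fn1 with 167 RPKM, Col3a1 with 86.7 RPKM and Col1a2 with 20.9 RPKM. That order was the same in each of the 4 libraries. The gene models behind these values were 2036 bp for Sparc, 5825 bp for Col1a1, 8331 bp for Fn1, 4765 bp for Col3a1 and 4464 bp for Col1a2.

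**Figure D1:**
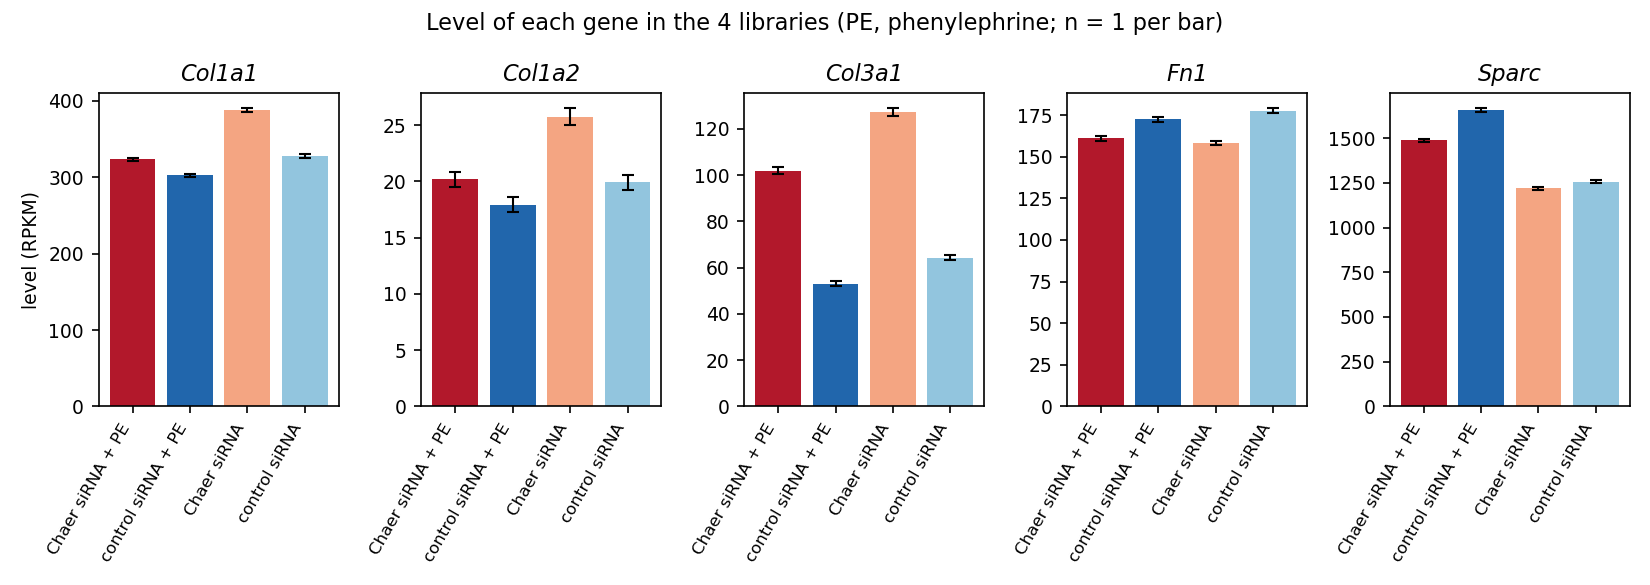
Level of each gene in RPKM (vertical axis, from 0, scaled for each gene) in the 4 single libraries, with 95% exact Poisson intervals of the read count as error bars; PE is phenylephrine. Col3a1 stands at 102 and 127 RPKM with Chaer siRNA against 53.1 and 64.3 RPKM with control siRNA, and Sparc is highest in the 2 libraries with phenylephrine.

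Col3a1, the chain of type III collagen, had the widest range of the 5 genes. It had 102 RPKM (101 to 103) with Chaer siRNA and phenylephrine, against 53.1 RPKM (52.0 to 54.3) with control siRNA and phenylephrine. Without phenylephrine it had 127 RPKM (126 to 129) with Chaer siRNA and 64.3 RPKM (63.1 to 65.5) with control siRNA. Both Chaer siRNA libraries thus lay above both control siRNA libraries, and the highest library was 2.40 times the lowest. The intervals of the 4 levels did not overlap, which held for Fn1 and Sparc as well. Fn1 had a range of only 1.12 times, so at these read counts non-overlap does not mark a large difference. The share of all features without overlap was not computed.

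Chaer siRNA over control siRNA gave a Col3a1 ratio of 1.98 (1.94 to 2.02) without phenylephrine and 1.92 (1.87 to 1.97) with it. On the log2 scale of (RPKM + 1), on which all features were compared, these ratios were 0.97 and 0.93. They were exceeded by 130 and 157 of the 12226 features whose mean level was 1 RPKM or more. The libraries behind the 2 ratios are separate, and 82 other features (0.671%) had ratios at least as high in both. Col3a1 therefore lay just under the 2-fold size rule in both conditions.

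None of the 5 genes reached 2-fold with Chaer siRNA, a rule passed upward by 1.02% of all features without phenylephrine and 0.998% with it, and downward by 1.11% and 0.851%. At 1.5-fold the count was 1 of 5 in each condition, Col3a1, against 4.94% of all features higher and 6.21% lower without phenylephrine, and 4.47% higher and 4.31% lower with it. The median log2 ratio of the 5 genes was 0.24 without phenylephrine and 0.10 with it, beside 0.02 and -0.03 over all features. In an additive edgeR quasi-likelihood model over the 4 libraries, Col3a1 rose with Chaer siRNA, with a log2 term of 0.96 ± 0.14 (SE, adjusted p = 8.05e-10). It was the only 1 of the 5 genes called for Chaer siRNA, where 19.6% of all features were called, 9.44% upward. That fit sets 2 libraries against 2 and takes its error from departures from additivity over all genes, so it holds no replicate cultures. When the edgeR model held the siRNA alone, the Col3a1 term was again 0.96, with an adjusted p = 0.122.

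Col1a1 and Col1a2, the chains of type I collagen, were also higher with Chaer siRNA, without passing the test. Col1a1 had 323 RPKM with Chaer siRNA and phenylephrine, 302 RPKM with control siRNA and phenylephrine, 388 RPKM with Chaer siRNA alone and 327 RPKM with control siRNA alone. Its highest library was that with Chaer siRNA alone, and the levels with Chaer siRNA plus phenylephrine and with control siRNA alone had overlapping intervals. Col1a2 had 20.2, 17.9, 25.7 and 19.9 RPKM in the same order of libraries, with the same library highest and the same overlap. The Chaer siRNA ratio of Col1a1 was 1.18 (1.17 to 1.20) without phenylephrine and 1.07 (1.06 to 1.08) with it.

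For Col1a2 the Chaer siRNA ratio was 1.29 (1.24 to 1.35) without phenylephrine and 1.13 (1.07 to 1.18) with it. Against all features, these ratios stood at the 77.2 and 68.3 percentiles for Col1a1 and at the 86.5 and 74.9 percentiles for Col1a2. In the edgeR quasi-likelihood fit the Chaer siRNA terms were 0.16 ± 0.16 for Col1a1 (adjusted p = 0.548) and 0.26 ± 0.14 for Col1a2 (adjusted p = 0.188), with SE.

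Fn1 and Sparc were slightly lower with Chaer siRNA. Fn1 had 161 and 158 RPKM with Chaer siRNA, with and without phenylephrine, against 173 and 178 RPKM with control siRNA. Its libraries with Chaer siRNA were both below those with control siRNA, yet the highest level was only 1.12 times the lowest, the narrowest range of the 5 genes. The Chaer siRNA ratio of Sparc was 0.971 (0.962 to 0.979) without phenylephrine and 0.899 (0.892 to 0.906) with it. Neither gene passed the edgeR quasi-likelihood test, with terms of -0.14 ± 0.15 for Fn1 (adjusted p = 0.608) and -0.11 ± 0.17 for Sparc (adjusted p = 0.739), with SE.

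**Figure D2:**
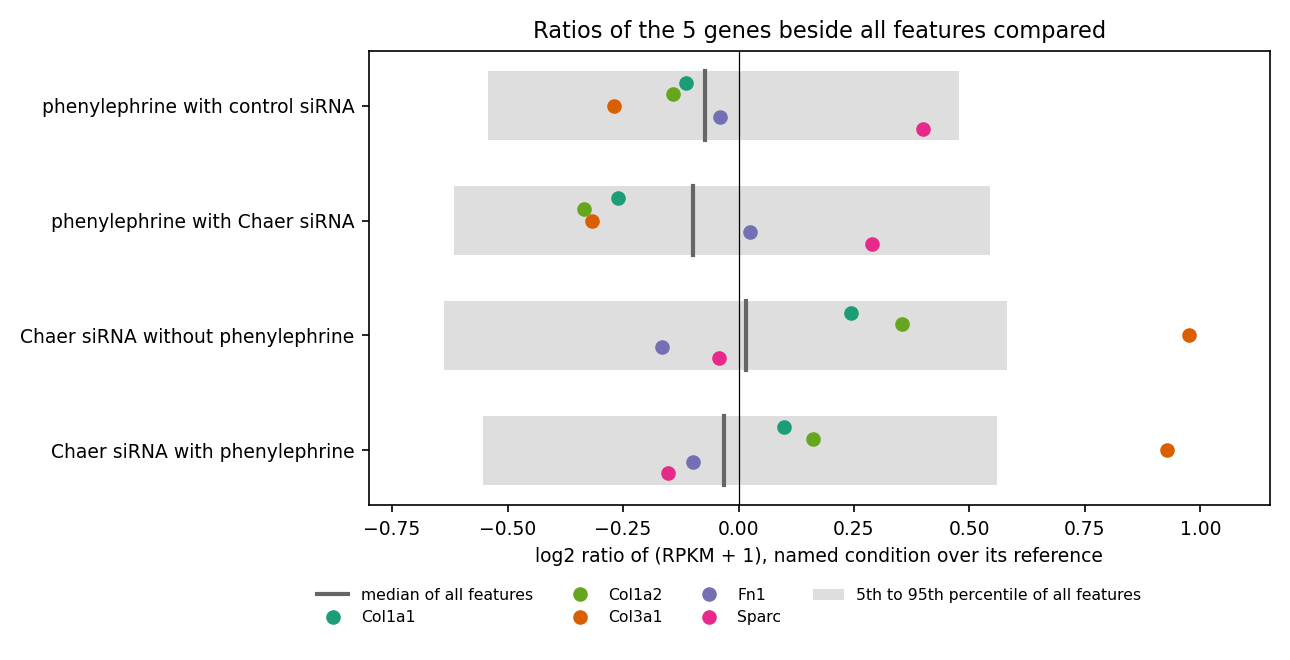
Log2 ratio of (RPKM + 1) of each gene (points) in the 4 comparisons, each between 2 single libraries, beside the median (dark line) and the 5th to 95th percentile (grey bar) of all features compared. Col3a1, at 0.97 and 0.93 with Chaer siRNA, lies outside the grey bar in both siRNA comparisons, and the other points lie inside it in all 4.

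Phenylephrine addressed the response to the hypertrophic stimulus. With control siRNA, the ratios of phenylephrine over no phenylephrine were 0.923 (0.913 to 0.933) for Col1a1, 0.901 (0.857 to 0.948) for Col1a2 and 0.826 (0.804 to 0.850) for Col3a1. With Chaer siRNA they were 0.835 (0.827 to 0.843), 0.785 (0.751 to 0.819) and 0.801 (0.786 to 0.816), from libraries other than those with control siRNA. All 6 ratios were below 1, at the 21.4 to 43.6 percentiles of all features. The median of all features was itself below 0 on the log2 scale, at -0.07 with control siRNA and -0.10 with Chaer siRNA. Relative to those medians the collagens were lower by smaller amounts, with differences of -0.04 to -0.24.

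Sparc, by contrast, had 1489 RPKM with Chaer siRNA and phenylephrine and 1656 RPKM with control siRNA and phenylephrine, against 1218 RPKM with Chaer siRNA and 1255 RPKM with control siRNA. Both libraries with phenylephrine lay above both without it. None of the 4 intervals overlapped, as was also so for Col3a1 and Fn1, and these intervals hold counting error only. The phenylephrine ratio of Sparc was 1.32 (1.31 to 1.33) with control siRNA, the 93.2 percentile of all features, and 1.22 (1.21 to 1.23) with Chaer siRNA, the 86.0 percentile. In both comparisons, 554 other features (4.53%) had ratios at least as high. The Fn1 ratio was 0.972 (0.960 to 0.984) with control siRNA and 1.02 (1.01 to 1.03) with Chaer siRNA on the scale of RPKM. Its log2 ratio with control siRNA, -0.04 on that scale, turned to 0.04 with TMM scaling and 0.02 with median-ratio scaling, and was -0.11 without the 20 most abundant features in the read total. With Chaer siRNA the log2 ratio of Fn1 was 0.03, and 0.14 with TMM scaling. No direction is therefore given for Fn1 with phenylephrine.

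None of the 5 genes reached 2-fold with phenylephrine. That rule was passed upward by 1.12% and downward by 0.605% of all features with control siRNA, and by 1.1% and 0.875% with Chaer siRNA. At 1.5-fold, likewise 0 of 5 passed, where 3.54% of features were higher and 4.02% lower with control siRNA, and 4.27% higher and 5.91% lower with Chaer siRNA. The median log2 ratio of the 5 genes was -0.11 with control siRNA and -0.26 with Chaer siRNA, beside -0.07 and -0.10 over all features. With TMM scaling the median of the 5 genes was -0.04 with control siRNA and -0.15 with Chaer siRNA.

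The edgeR quasi-likelihood fit called 0 of the 5 genes for phenylephrine, where 15.4% of all features were called, and 1 of them, Sparc, had an unadjusted p under 0.05. The Sparc term was 0.44 ± 0.17 (SE), with an adjusted p = 0.0504, at the edge of the threshold. DESeq2 called Sparc, with a term of 0.43 and an adjusted p = 0.0401, and so did edgeR with no filter on level, with an adjusted p = 0.0189. Over the 6 settings run, its adjusted p ranged between 0.0189 and 0.504. The edgeR terms of the collagens were -0.09 ± 0.16 for Col1a1, -0.15 ± 0.14 for Col1a2 and -0.20 ± 0.14 for Col3a1 (SE), with adjusted p = 0.780, adjusted p = 0.536 and adjusted p = 0.388. For Fn1 the term was 0.09 ± 0.15 (adjusted p = 0.778), and it turned to -0.01 with library size scaling in place of TMM.

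The difference of the phenylephrine effects, Chaer siRNA minus control siRNA, was small for each of the 5 genes. On the log2 scale of RPKM it was -0.15 (-0.17 to -0.12) for Col1a1, -0.20 (-0.30 to -0.10) for Col1a2, -0.04 (-0.09 to 0.004) for Col3a1, 0.07 (0.04 to 0.09) for Fn1 and -0.11 (-0.13 to -0.09) for Sparc. For Col3a1 the interval included 0, and for the others it did not, as far as counting error alone goes. None reached 2-fold, a difference seen upward in 0.319% and downward in 0.221% of all features. All 5 lay between the 29.8 and 66.4 percentiles of all features, whose median difference was -0.06. No test of this difference beside both main effects can be made, since the 4 libraries leave no residual for it.

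**Figure D3:**
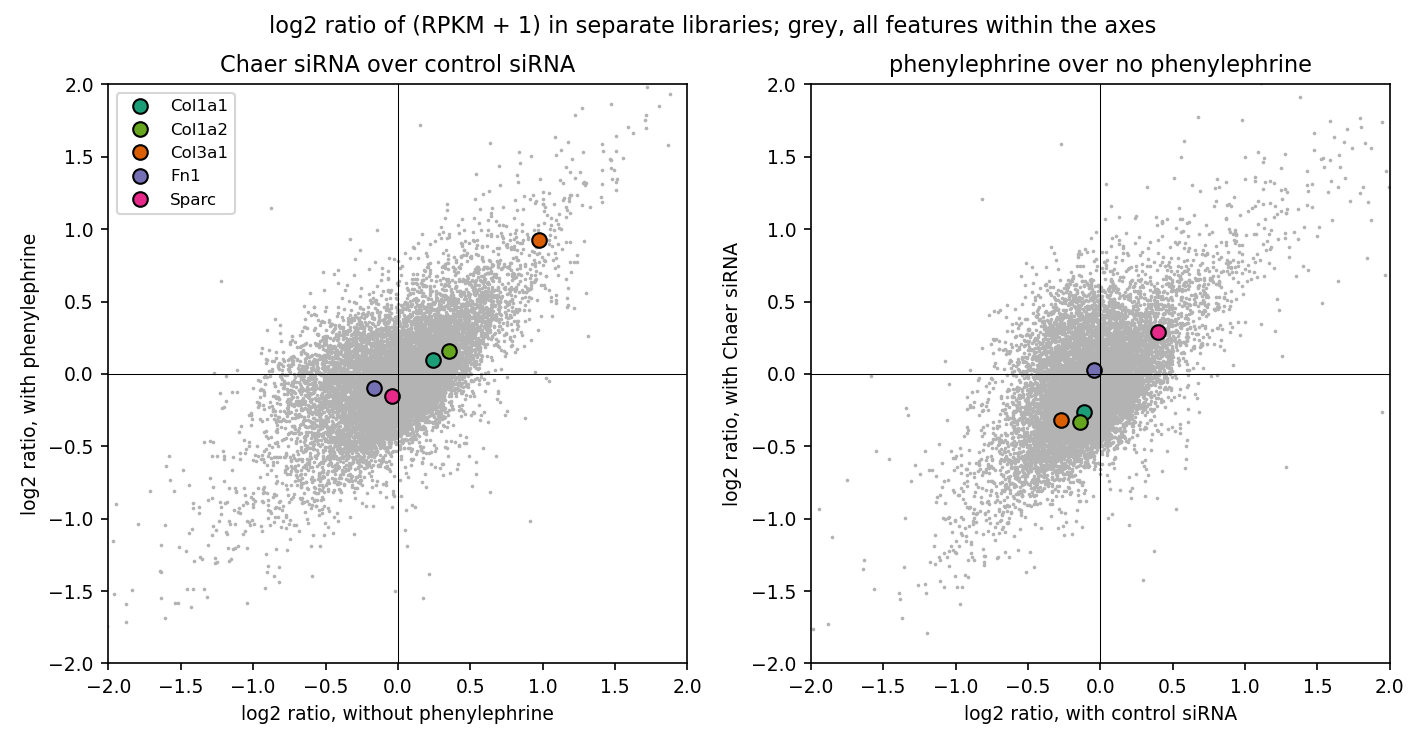
Left, log2 ratio of Chaer siRNA over control siRNA without phenylephrine (horizontal) and with phenylephrine (vertical); right, log2 ratio of phenylephrine over none with control siRNA (horizontal) and with Chaer siRNA (vertical). Grey points are all features within the axes, and each axis uses separate libraries; Col3a1 lies at 0.97 and 0.93 on the left and Sparc at 0.40 and 0.29 on the right.

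Ratios between the genes within a library do not depend on the scaling between libraries. Col3a1 over Col1a1, the relation of type III to type I chains, was 0.315 with Chaer siRNA and phenylephrine, against 0.176 with control siRNA and phenylephrine. Without phenylephrine it was 0.328 with Chaer siRNA and 0.196 with control siRNA. The ratio was thus higher in both Chaer siRNA libraries, by 1.79-fold (1.75 to 1.84) with phenylephrine and 1.67-fold (1.63 to 1.71) without it. Set against Col1a2, Col3a1 was higher with Chaer siRNA by 1.71-fold (1.61 to 1.80) with phenylephrine and 1.53-fold (1.46 to 1.61) without it.

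Of the summed RPKM of the 3 collagens, Col3a1 made up 22.9% with Chaer siRNA and phenylephrine and 14.2% with control siRNA and phenylephrine. Without phenylephrine its share was 23.5% with Chaer siRNA and 15.6% with control siRNA. The share of Col1a2 stayed between 4.53% and 4.84% in the 4 libraries. As the shares are parts of the same sum, a higher Col3a1 share must come with a lower share of the type I chains. Col1a2 is a small part of that sum, so the width of its range in percent cannot be set against that of Col1a1. With Chaer siRNA, Col1a1 over Col1a2 changed 0.916-fold (0.875 to 0.959) without phenylephrine and 0.951-fold (0.905 to 1.00) with it. By the ratios above, Col3a1 was higher with Chaer siRNA relative to both type I chains.

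The pair of type I chains kept a nearly constant relation. Col1a1 over Col1a2 was 16.0 (15.5 to 16.6) with Chaer siRNA and phenylephrine, 16.8 (16.2 to 17.5) with control siRNA and phenylephrine, 15.1 (14.6 to 15.5) with Chaer siRNA and 16.4 (15.9 to 17.0) with control siRNA. The interval with Chaer siRNA alone lay below those of both control siRNA libraries, and the other 3 overlapped each other. The large distance in level between the 2 chains, which join in 1 protein, is a value per length of the authors' gene models; how well those models cover the transcripts was not tested.

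Sparc over Col1a1 was 4.60 with Chaer siRNA and phenylephrine and 5.48 with control siRNA and phenylephrine, against 3.14 with Chaer siRNA and 3.83 with control siRNA. Phenylephrine thus came with a ratio higher by 1.46-fold (1.45 to 1.48) with Chaer siRNA and 1.43-fold (1.41 to 1.45) with control siRNA. Sparc over Fn1 was likewise higher with phenylephrine, by 1.20-fold (1.18 to 1.22) with Chaer siRNA and 1.36-fold (1.34 to 1.38) with control siRNA.

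**Figure D4:**
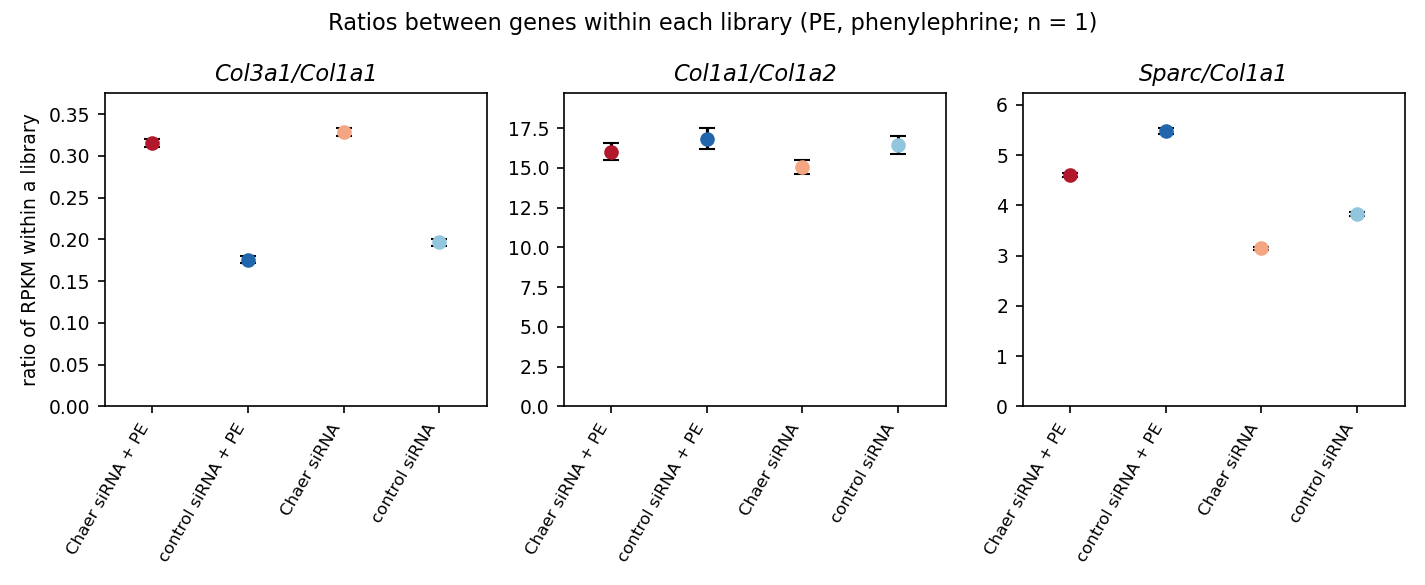
Ratio of RPKM between 2 genes within each of the 4 single libraries (vertical axis, from 0), with 95% exact binomial intervals of the reads as error bars; PE is phenylephrine. Col3a1/Col1a1 is 0.315 and 0.328 with Chaer siRNA against 0.176 and 0.196 with control siRNA, Col1a1/Col1a2 stays between 15.1 and 16.8, and Sparc/Col1a1 is highest in the libraries with phenylephrine.

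As a measure of likeness, the distance between 2 genes was taken over the 4 libraries on log2(RPKM + 1) values centred for each gene. Col1a1 and Col1a2 were closest, at 0.10, and Col3a1 and Sparc farthest apart, at 1.23. Col3a1 lay 0.70 from Col1a2 and 0.79 from Col1a1, and Fn1 lay 0.36 from Sparc and 0.37 from Col1a1. Among the 12221 other features, those nearest to the mean pattern of the 3 collagens were ENSRNOG00000017349, at 0.02, and ENSRNOG00000016984, at 0.03. That mean lies between Col3a1 and the type I chains, so closeness to it is not closeness to any single collagen. ENSRNOG00000017349 had 18.5 and 13.6 RPKM with phenylephrine under Chaer and control siRNA, and 22.6 and 15.4 RPKM without it. ENSRNOG00000016984 had 43.4 and 31.9 RPKM with phenylephrine under Chaer and control siRNA, and 53.3 and 36.9 RPKM without it. With 4 values per feature, such closeness is a description of these libraries.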

How the data were processed

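RNA-seq libraries were stranded TruSeq preparations of TRIzol-extracted total RNA, per the labels' protocols. The submitters' processing notes name TopHat2 and the build rn5; how reads were counted, with which annotation, strand setting and filters, is not given in the sources used here. The authors deposited, per the file headers, raw read counts and RPKM values per feature. Counts, RPKM and whole gene lengths gave read totals of 35314303 to 40835172 per library behind the RPKM values. The 5 genes carried 2829 to 123786 reads per library. Symbols came with the selection of the 5 identifiers. The list of other matrix genes and the cell type marker lists could not be applied, since 0 identifiers paired with a symbol. Genes and lists were chosen with earlier results of these data known.

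Ratios were log2 of (RPKM + 1) for the 12226 features whose mean level was 1 RPKM or more, and plain RPKM ratios with exact binomial intervals for the 5 genes. Levels have exact Poisson intervals, and differences of effects and of ratios have normal intervals on log counts. Intervals cover counting error only, since each group had 1 library. Reads carry no molecular identifiers, and the intervals take each read as an independent count. The additive fit used edgeR 4.0.16 (TMM, quasi-likelihood test, Benjamini-Hochberg adjustment over all 12226 features) in R 4.3.3, with 1 residual degree of freedom, an infinite prior and a common biological coefficient of variation of 0.111. It was tested on simulated data. Alternatives were other pseudocounts, scalings, filters and models, and DESeq2 1.42.0. Named features were the 5 genes and the 2 features nearest to the mean collagen pattern.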

Additional observations from a re-analysis of the deposited data

How the results depend on the processing

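Median log2 ratios of the 5 genes kept their sign in all 5 comparisons under each pseudocount and scaling run. For phenylephrine with control siRNA the median was -0.035 with TMM scaling, -0.054 with median-ratio scaling and -0.18 with the 20 most abundant features kept out of the read total. For phenylephrine with Chaer siRNA it was -0.15 with TMM and -0.16 with median-ratio scaling. For Chaer siRNA without phenylephrine it was 0.22, 0.23 and 0.16 in the order of the first 3 settings, and with phenylephrine 0.12 with median-ratio scaling and 0.081 without the 20 features. The difference of the effects was -0.076, -0.069 and -0.045 in that order. Of 125 values of single genes, 3 turned sign, 2 for Fn1 with phenylephrine under control siRNA and 1 for the Col3a1 difference of effects. All 3 turned under another scaling between libraries, from main values of -0.04 and -0.05. Why the scalings differ was not tested. No gene passed 2-fold under any pseudocount or scaling; at 1.5-fold 1 gene, Col3a1, passed in each siRNA comparison.

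In the additive fit, DESeq2 and edgeR without a filter each called 1 of the 5 genes for phenylephrine, and edgeR with phenylephrine left out called 0 for Chaer siRNA, where phenylephrine entered the error by construction. Fn1 turned to -0.011 for phenylephrine with library size scaling. Over all features, DESeq2 called 561 higher and 342 lower for phenylephrine, against 1071 and 806 in edgeR, and 646 and 417 for Chaer siRNA, against 1154 and 1243. Library size scaling gave 703 and 1292 for phenylephrine, and a mean RPKM of at least 5 gave 679 and 466 for phenylephrine and 756 and 616 for Chaer siRNA. With the other factor left out, the calls were 8 for phenylephrine and 1 for Chaer siRNA, while 1217 and 1615 features had an unadjusted p under 0.05. At 2-fold, features higher and lower numbered 162 and 53 with TMM scaling for phenylephrine with control siRNA, against 137 and 74, and 179 and 71 for phenylephrine with Chaer siRNA, against 134 and 107. Without the 20 most abundant they numbered 95 and 170 for Chaer siRNA without phenylephrine, against 125 and 136. No paired analysis was possible because the labels carry no replicate numbers, with 1 library in each group. No library was left out, since a group would vanish.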
